A study of Homo sapiens with 4 samples.

Results

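The 10 genes described here encode amino acid transporters of the plasma membrane: SLC7A11, SLC7A5, SLC3A2, SLC7A1, SLC7A6, SLC38A1, SLC38A2, SLC1A4, SLC1A5 and SLC43A1. They were chosen by name, with earlier results of these data known. Their values are those of every Affymetrix HG-U133 Plus 2.0 probe set that the platform annotation assigns to exactly 1 of them. That gave 27 probe sets of the 54613 non-control probe sets on the array, and 10 of 19775 annotated genes. Kit225 cells are a line of human leukemic T cells whose growth needs interleukin-2 (IL-2), and all cultures were kept with 20 U/ml of recombinant human IL-2. Cells received NC1153, a compound known as an inhibitor of the kinase JAK3, or the solvent DMSO for 12 hours, with 2 arrays per group. The label gives the dose as 25 mM NC1153 against 0.1% DMSO, a unit that could not be checked here. Every group is a single cell line, and whether the replicates are separate cultures is not stated in the labels. The p-values here therefore measure the spread between these arrays alone, and that spread may be technical.

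Amino acid transporters work as families with distinct substrates. SLC3A2 (also called 4F2hc or CD98) is a heavy chain that brings light chains of the SLC7 family to the cell surface. With SLC7A5 it exchanges large neutral amino acids such as leucine (system L), with SLC7A6 it exchanges cationic and neutral amino acids, and with SLC7A11 it takes up cystine in exchange for glutamate, which feeds glutathione synthesis. SLC7A1 carries arginine and lysine without a heavy chain, SLC38A1 and SLC38A2 take up glutamine and other small neutral amino acids with sodium, SLC1A4 and SLC1A5 exchange alanine, serine, cysteine and, for SLC1A5, glutamine, and SLC43A1 carries large neutral amino acids on its own. Activated T cells raise several of these transporters, and the IL-2 receptor and MYC are known to take part in that. When amino acids are short, the kinase GCN2 (EIF2AK4) raises translation of the transcription factor ATF4, which induces many transporter genes through C/EBP-ATF composite elements. NRF2 (NFE2L2) induces SLC7A11 under oxidative stress through antioxidant response elements.

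Promoter windows from RefSeq (GRCh38.p14) were of 300 bases, with 250 before an annotated start. They were found for 9 of the members, 16 windows in all because some genes have several starts, and SLC7A11 was not matched. The sequences below show 130 bases of a window, from 100 before the start to 30 after it. Those of SLC1A4, SLC7A1, SLC38A1 and SLC1A5 are given because the composite motif stood beside both transporters that rose and transporters that did not pass. That of SLC3A2 shows an antioxidant response element core instead. Capitals mark a match to TGATGNAA or its reverse complement TTNCATCA, the C/EBP-ATF composite, in the windows of SLC1A4, SLC7A1, SLC38A1 and SLC1A5. In that of SLC3A2 they mark a match to TGACNNNGC, the core of the antioxidant response element. The antioxidant core match of SLC7A1, at -85 to -77, is left in lower case. Positions are counted from the start to which each window belongs, with no position 0. For SLC3A2, SLC1A4, SLC38A1 and SLC1A5 the start shown lies inside the gene, not at its outer end.
SLC3A2 (chr11:62881599-62881728, plus strand): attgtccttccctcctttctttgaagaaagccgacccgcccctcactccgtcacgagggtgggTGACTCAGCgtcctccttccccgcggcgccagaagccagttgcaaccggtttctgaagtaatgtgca
SLC1A4 (chr2:64989299-64989428, plus strand): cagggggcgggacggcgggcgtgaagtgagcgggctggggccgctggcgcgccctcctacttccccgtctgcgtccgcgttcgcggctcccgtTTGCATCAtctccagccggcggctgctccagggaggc
SLC7A1 (chr13:29595659-29595788, minus strand): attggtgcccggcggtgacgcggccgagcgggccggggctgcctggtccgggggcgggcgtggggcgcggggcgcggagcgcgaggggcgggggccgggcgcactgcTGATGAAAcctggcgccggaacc
SLC38A1 (chr12:46266487-46266616, minus strand): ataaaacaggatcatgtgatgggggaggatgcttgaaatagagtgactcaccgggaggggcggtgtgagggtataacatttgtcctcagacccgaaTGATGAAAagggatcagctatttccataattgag
SLC1A5 (chr19:46784785-46784914, minus strand): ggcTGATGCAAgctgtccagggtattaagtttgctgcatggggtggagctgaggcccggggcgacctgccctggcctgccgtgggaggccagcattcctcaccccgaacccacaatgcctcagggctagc

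The composite motif was found in 5 of the 16 windows, 1 window each of SLC3A2, SLC7A1, SLC38A1, SLC1A4 and SLC1A5, and in 3.62% of 35116 windows of all genes, both strands searched. In SLC3A2 it lies at 38 to 45 after the start, outside the stretch printed. The antioxidant core was in 5 member windows, of SLC7A5, SLC3A2, SLC7A1, SLC7A6 and SLC1A5, and in 13.3% of all windows, and an E-box (CACGTG), to which MYC and other factors bind, in 3, of SLC7A5, SLC1A5 and SLC43A1, and in 7.26% of all. A STAT motif (TTCNNNGAA) was in 3 windows, 2 of SLC3A2 and 1 of SLC38A1, and in 7.66% of all. Where SLC3A2, SLC1A4, SLC38A1 and SLC1A5 hold a composite match, their other windows do not. These are matches of letters in short windows and no evidence of binding.

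The arrays were scaled by the authors to a common mean, and NC1153 replicate 1 needed the largest factor, 6.68 against 2.66 to 2.97 on the others, per the file headers. Its 3′ to 5′ ratio for β-actin was also the highest, 4.47, beside 3.89 for NC1153 replicate 2 and 3.54 and 3.82 for the DMSO arrays. For GAPDH the ratios were close, 0.93 and 0.92 with NC1153 and 0.91 and 0.94 with DMSO. The median log2 signal of the spiked-in control probe sets was 11.48 and 11.23 with NC1153 and 10.99 and 10.96 with DMSO. The part of these differences in the results was not tested. Of 12 T cell markers, 6 lay above the median of all probe sets (CD2, CD4, CD7, CD247, ZAP70 and IL2RA), while CD3D, CD3E, CD3G, CD5, CD28 and LCK lay at or below it. All 4 epithelial markers and 4 of 5 myeloid markers also lay at or below the median, as did 2 of 4 B cell markers and 1 of 3 erythroid markers, with CD79A, CD79B, HBB and KLF1 above it. No marker of any of these types was called.

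Transcripts of 5 of the 10 transporters rose with NC1153: SLC7A11, SLC3A2, SLC1A4, SLC38A2 and SLC7A1, from 1.60-fold for SLC7A1 to 4.40-fold for SLC7A11 by the brightest probe set of each gene. SLC7A5, SLC1A5, SLC7A6, SLC38A1 and SLC43A1 did not pass. A probe set was called when the Benjamini-Hochberg adjusted p of limma, over all probe sets, was under 0.05. Of the 27 probe sets, 13 were called higher and 0 lower, and at an unadjusted p under 0.05 these numbers were 15 and 0. In the whole array, limma called 1.94% of probe sets higher and 1.78% lower, and of those brighter than the median, where 25 of the 27 lie, 3.83% were higher. By gene, 5 of 10 were higher and 0 lower, against 3.09% higher and 2.84% lower of all genes. The median log2 change was 0.73 over the 10 genes and 0.0020 over all genes. The members were chosen with earlier results of these data known, so these comparisons are no test of an excess among transporters. Because signals are scaled to a common mean, a change in RNA per cell common to all genes, or in the number of cells, cannot be told apart from these values.

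**Figure D1:**
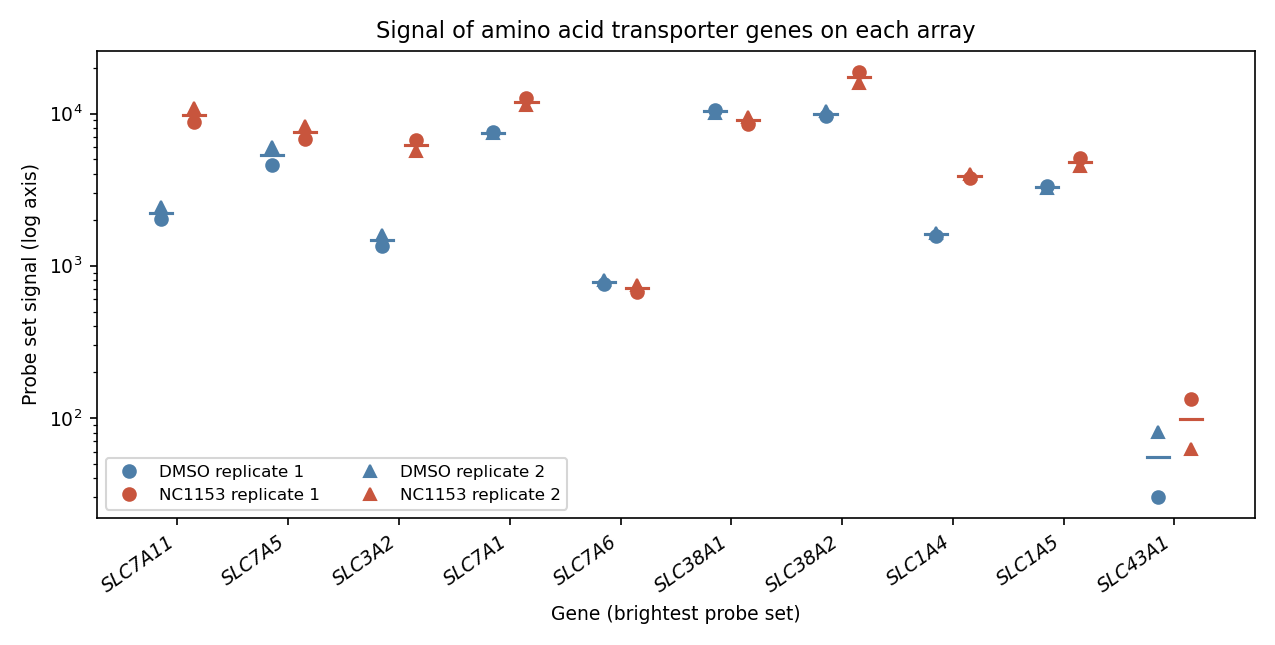
Signal of the brightest probe set of each transporter gene on the 4 arrays (log axis, in the authors' scaled units). Points are arrays, with circles for replicate 1 and triangles for replicate 2, and short lines are group means. Both NC1153 arrays lie above both DMSO arrays for 7 of the genes, and below for SLC7A6 and SLC38A1. Heights of different genes are not comparable, since each probe set binds with its own strength.

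The cystine transporter and its heavy chain had the largest changes. The brightest SLC7A11 probe set, 217678_at, read 8767 and 10859 with NC1153 and 2023 and 2429 with DMSO. The log2 change was 2.14 ± 0.16 (SE, n = 2 each, limma adjusted p = 0.00046). Its second probe set, 209921_at, read 9726 and 9412 with NC1153 and 1938 and 2128 with DMSO, a log2 change of 2.24. The third, 207528_s_at, is dimmer, with signals of 996 and 1130 against 193 and 279, and its log2 change was 2.19 (adjusted p = 0.0028). The 3 probe sets thus had log2 changes between 2.14 and 2.24 although their DMSO means ran from 236 to 2226, and on each of them the groups did not overlap. Probe sets of a gene read the same RNA and are not replicates.

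SLC3A2, read by the single probe set 200924_s_at, had signals of 6711 and 5695 with NC1153 and of 1353 and 1587 with DMSO. Its log2 change was 2.08 ± 0.15 (SE, n = 2 each, limma adjusted p = 0.00046), 2.31 within replicate 1 and 1.84 within replicate 2. The groups did not overlap.

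The other light chains of SLC3A2 did not pass, and their difference from SLC7A11 was not tested. SLC7A5, the leucine exchanger, read 6799 and 8316 with NC1153 and 4618 and 6060 with DMSO. Both NC1153 arrays were above both DMSO arrays, but the gap between the DMSO arrays was wider than the gap from the higher DMSO array to the lower NC1153 array. The log2 change was 0.51 with a 95% interval of 0.13 to 0.89, and it did not pass (limma adjusted p = 0.16). Within replicate 1 the change was 0.56 and within replicate 2 it was 0.46, and with the replicate number as a block it passed (adjusted p = 0.027). It was 0.13 with spike-in centring and 0.31 without DMSO replicate 1, and passed in neither. SLC7A6 had log2 changes of -0.14, -0.13 and 0.013 on its 3 probe sets, and the brightest, 203580_s_at, read 667 and 752 with NC1153 against 763 and 800 with DMSO. The 95% interval of that probe set, -0.56 to 0.27, excludes a change as large as that of SLC7A11. SLC43A1, which carries the same kind of amino acids without a heavy chain, was near the median of all signals. It read 133 and 62.1 with NC1153 and 30.3 and 80.8 with DMSO, with overlapping groups. The 95% interval was -0.87 to 2.63, so the sign of any change could not be told.

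**Figure D2:**
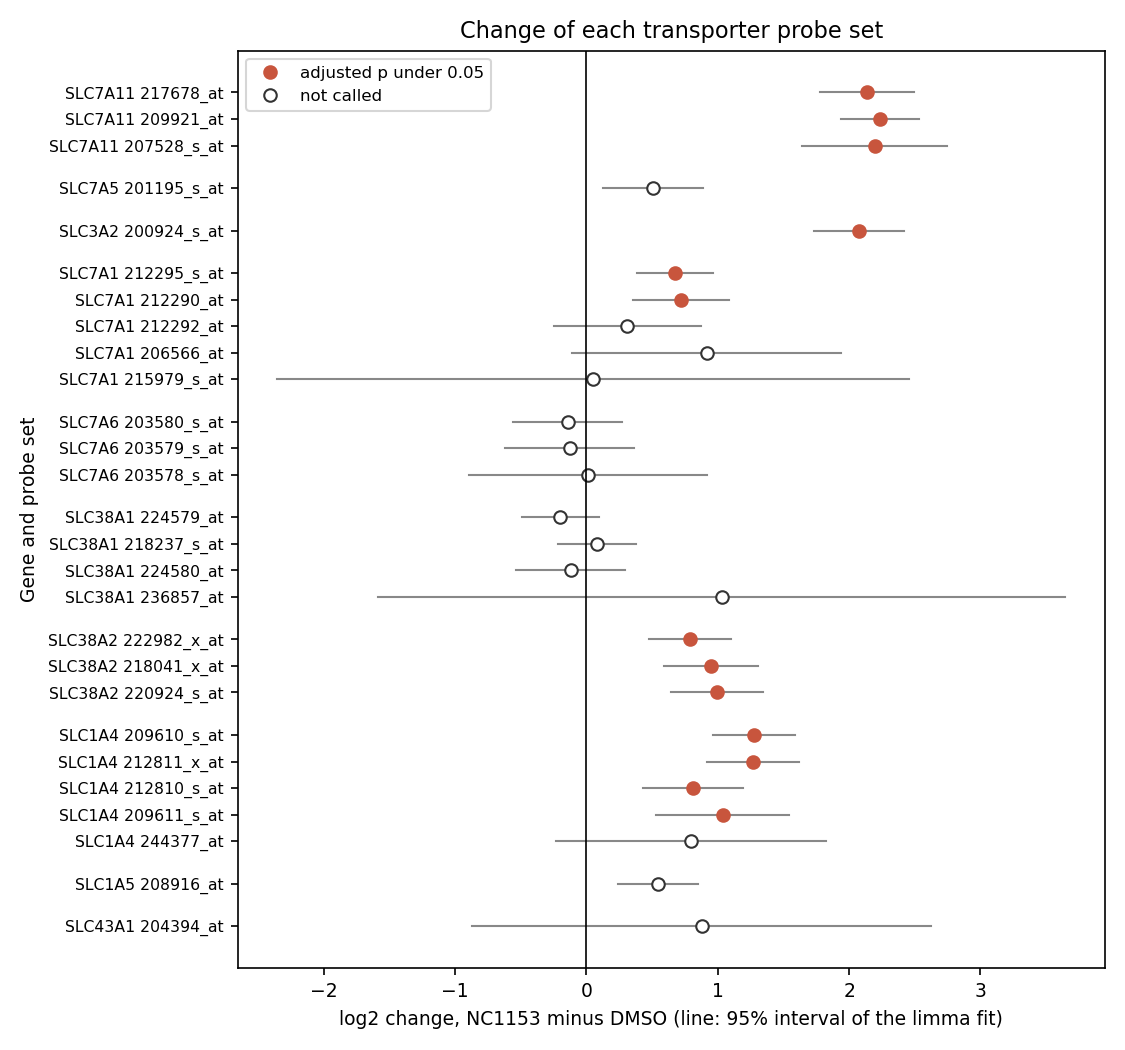
log2 change (NC1153 minus DMSO) of each of the 27 transporter probe sets, grouped by gene and, within a gene, from the brightest to the dimmest. Points are fitted changes, lines their 95% intervals, and filled points those with a limma adjusted p under 0.05. The 13 filled points lie between 0.68 and 2.24, and the widest intervals belong to dim probe sets of SLC7A1, SLC38A1 and SLC43A1.

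Among carriers of alanine, serine and cysteine, SLC1A4 rose on 4 of its 5 probe sets. The brightest, 209610_s_at, read 3747 and 4010 with NC1153 and 1575 and 1633 with DMSO. Its log2 change was 1.27 ± 0.14 (SE, n = 2 each, limma adjusted p = 0.0025), and the groups did not overlap. The other called probe sets changed by 1.27, 0.81 and 1.04. The first of these, 212811_x_at, has a suffix that marks probes that may also bind other transcripts. The dim 244377_at, which read 151 and 194 against 79.1 and 123, had a value of 0.80 (adjusted p = 0.47). SLC1A5, its relative that also carries glutamine, read 5085 and 4528 with NC1153 and 3351 and 3233 with DMSO. It missed the threshold, with a log2 change of 0.54, a 95% interval of 0.24 to 0.85 and a limma adjusted p of 0.064, although the groups did not overlap. It passed with quantile normalization (adjusted p = 0.043), with the fit limited to brighter probe sets (0.028), with the replicate number as a block (0.021) and without NC1153 replicate 2 (0.035). It did not pass in the other settings, and with spike-in centring its value was 0.16 (adjusted p = 0.65).

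The glutamine and alanine carriers of the SLC38 family gave different values. SLC38A2, a classic target of amino acid deprivation, rose on all 3 of its probe sets, with log2 changes of 0.79, 0.95 and 0.99. The brightest, 222982_x_at, read 18744 and 15791 with NC1153 and 9600 and 10318 with DMSO (limma adjusted p = 0.017, n = 2 each), so the groups were separate and the NC1153 arrays differed more than the DMSO arrays. The suffix of this probe set and of 218041_x_at marks probes that may also bind other transcripts. SLC38A1 had 4 probe sets, and none passed. Its brightest, 224579_at, read 8497 and 9505 with NC1153 and 10562 and 10064 with DMSO, a log2 change of -0.20 with a 95% interval of -0.49 to 0.09. A second bright probe set, 218237_s_at, had the opposite sign, 0.083, with overlapping groups, and the dim 236857_at read 68.7 and 33.4 against 9.31 and 59.3. The interval of the brightest SLC38A1 probe set lies below that of every SLC38A2 probe set, of which the lowest bound is 0.48. The difference itself was not tested.

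The arginine and lysine carrier SLC7A1 rose on its 2 brightest probe sets. The first, 212295_s_at, read 12581 and 11324 with NC1153 and 7506 and 7442 with DMSO, a log2 change of 0.68 ± 0.13 (SE, n = 2 each, limma adjusted p = 0.023). The second, 212290_at, read 1377 and 1308 against 809 and 821, a change of 0.72 (adjusted p = 0.046). Of the other 3 probe sets, which did not pass, 212292_at had a value of 0.31, 206566_at of 0.92 and the dim 215979_s_at of 0.051.

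In all, both NC1153 arrays lay above both DMSO arrays on 18 of the 27 probe sets and below them on 3, of SLC7A6 and SLC38A1, while 6 overlapped. On the whole array the first pattern held for 22.8% of probe sets and the second for 21.2%. The authors' deposited table, a selection of probe sets by their own RMA values and q-values, holds 12 of the 27, all of them higher with NC1153. These 12 are also called here, and 212290_at of SLC7A1 is the call that is not in that table. The RMA log2 changes in the authors' deposited table were 2.00 for 217678_at of SLC7A11, 1.67 for SLC3A2, 1.17 for 209610_s_at of SLC1A4, 0.65 for 222982_x_at of SLC38A2 and 0.64 for 212295_s_at of SLC7A1. Both tables come from the same arrays and are no independent evidence of each other.

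The calls rest on how the spread between arrays is modelled. Without a trend of the variance with signal, limma called 0% of all probe sets on the array and so 0 of the 27, of which 10 were higher at an unadjusted p under 0.05. A test of each probe set on its own, with no moderation, called 0% of the array as well, and 15 of the 27 were higher at that unadjusted level. After centring each array on its median, which left 0.0421% of all probe sets called higher, 2 of the 27 were called, 209921_at of SLC7A11 and 200924_s_at of SLC3A2, and the brightest SLC7A11 probe set did not pass (adjusted p = 0.059). Centring on the spiked-in controls brought the array-wide median log2 change to -0.36 and left 0.33% of all probe sets called higher. Of the 27, 6 were then called: the 3 of SLC7A11, that of SLC3A2, and 209610_s_at and 212811_x_at of SLC1A4. SLC38A2 then had a value of 0.41 (adjusted p = 0.19) and SLC7A1 of 0.29 (adjusted p = 0.34), both above that median. Leaving out an array leaves 1 array in its group, which is then assumed to vary like the arrays of the other group, so these fits say little about the spread. In them SLC7A11, SLC3A2 and 209610_s_at of SLC1A4 were called each time. The calls of the brightest SLC38A2 and SLC7A1 probe sets were lost without DMSO replicate 1 (adjusted p = 0.16 and 0.19) and without DMSO replicate 2 (0.057 and 0.18). Without DMSO replicate 1, 7 of the 27 probe sets were called, beside 1.36% of the array called higher. Without NC1153 replicate 1, which had been scaled the most, 10 were called, beside 0.892% of the array.

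**Figure D3:**
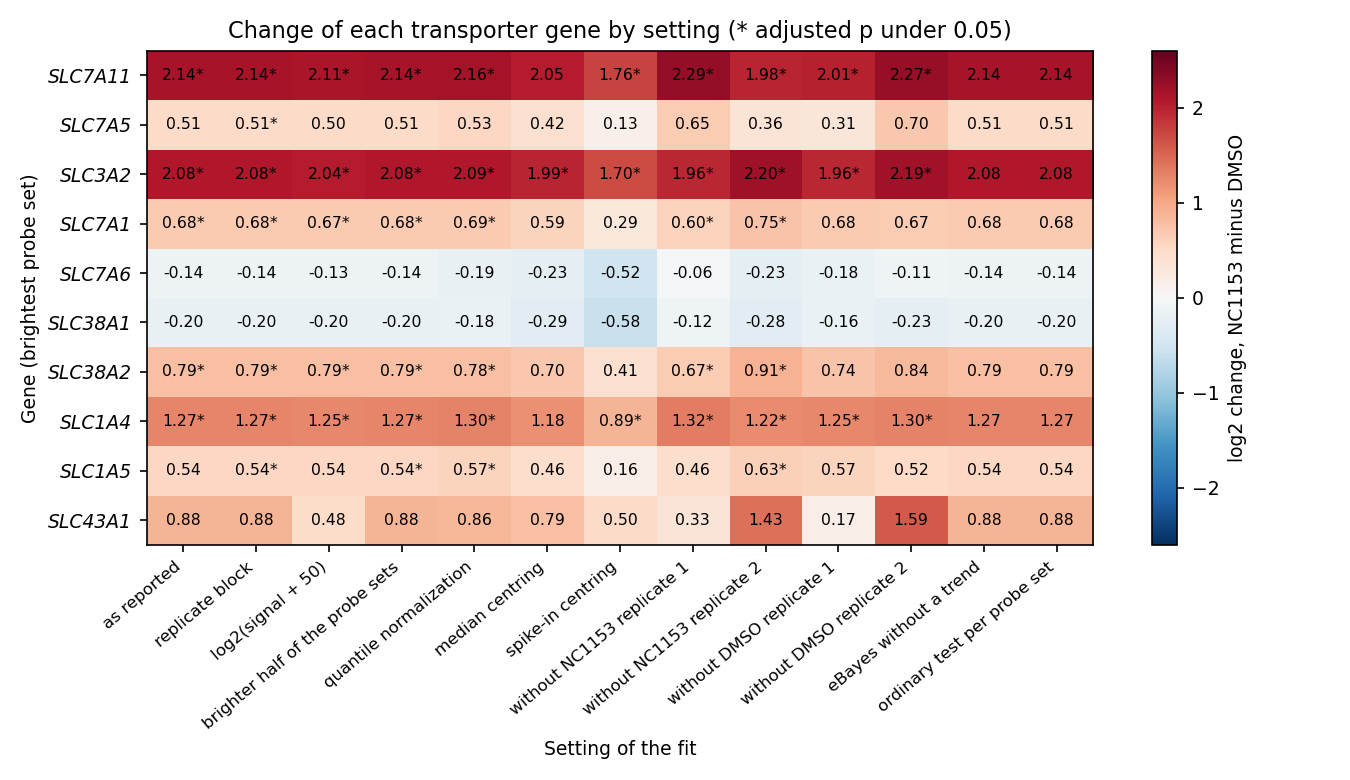
log2 change (NC1153 minus DMSO) of the brightest probe set of each transporter under the reported fit and 12 other settings. Colour and printed value give the change, and a star marks an adjusted p under 0.05. SLC7A11 and SLC3A2 stay between 1.70 and 2.29 in every column, and SLC7A6 and SLC38A1 are negative in every column.

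Of 46 measured genes in a list of further plasma membrane, lysosomal, synaptic and mitochondrial carriers, 2 rose, 1 fell and 43 did not pass, and 21 of them lay at or below the median signal. These counts are near the shares of all genes given above, 3.09% higher and 2.84% lower. The median log2 change was -0.12. SLC43A2, a relative of SLC43A1 that carries large neutral amino acids, read 309 and 317 with NC1153 and 105 and 79.2 with DMSO, a log2 change of 1.78 (limma adjusted p = 0.032). Its other probe set had the opposite sign and did not pass. SLC38A9, the lysosomal arginine sensor of mTORC1, read 1306 and 1338 against 669 and 657, a log2 change of 1.00 (limma adjusted p = 0.014). SLC25A15, the mitochondrial ornithine carrier, read 854 and 990 against 1566 and 1584, a log2 change of -0.78. Its other probe set had a value of -0.19 and did not pass (limma adjusted p = 0.92). After spike-in centring 0 of this list were called higher and 2 lower, beside 180 higher and 1758 lower of all 54613 probe sets.

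Regulators that answer to amino acid shortage and oxidative stress rose in part. Of 22 measured genes, 11 rose, 1 fell and 10 did not pass, and the median log2 change was 0.74. The gene that fell was GCN1, with a log2 change of -0.70 on its brightest probe set (limma adjusted p = 0.031). Of all genes, 3.09% were higher and 2.84% lower. In this list 0 genes lay at or below the median signal, and of probe sets brighter than the median 3.83% were higher. The list was chosen with earlier results of these data known. ATF4 itself read 30139 and 26196 with NC1153 and 15548 and 17187 with DMSO, a log2 change of 0.78 (limma adjusted p = 0.017). Genes named by size of change were DDIT3 (3.79), TRIB3 (2.30), MAFF (2.19), ATF3 (2.16) and PPP1R15A (1.97), which encode CHOP, a pseudokinase that restrains ATF4, a small MAF partner of NRF2, a stress transcription factor and the GADD34 subunit that reverses eIF2α phosphorylation. MAFF had a value of 0.014 on its other probe set. NFE2L2 had a value of 0.47 on its brightest probe set (adjusted p = 0.11), and of its 2 other probe sets, 1 was called higher and 1 had the opposite sign without passing. MYC had a value of -0.75 (adjusted p = 0.12), with signals of 5919 and 5606 against 7304 and 12786. In this list 3 were called higher after median centring and 8 after spike-in centring. These settings called 0.0421% and 0.33% of all probe sets higher.

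**Figure D4:**
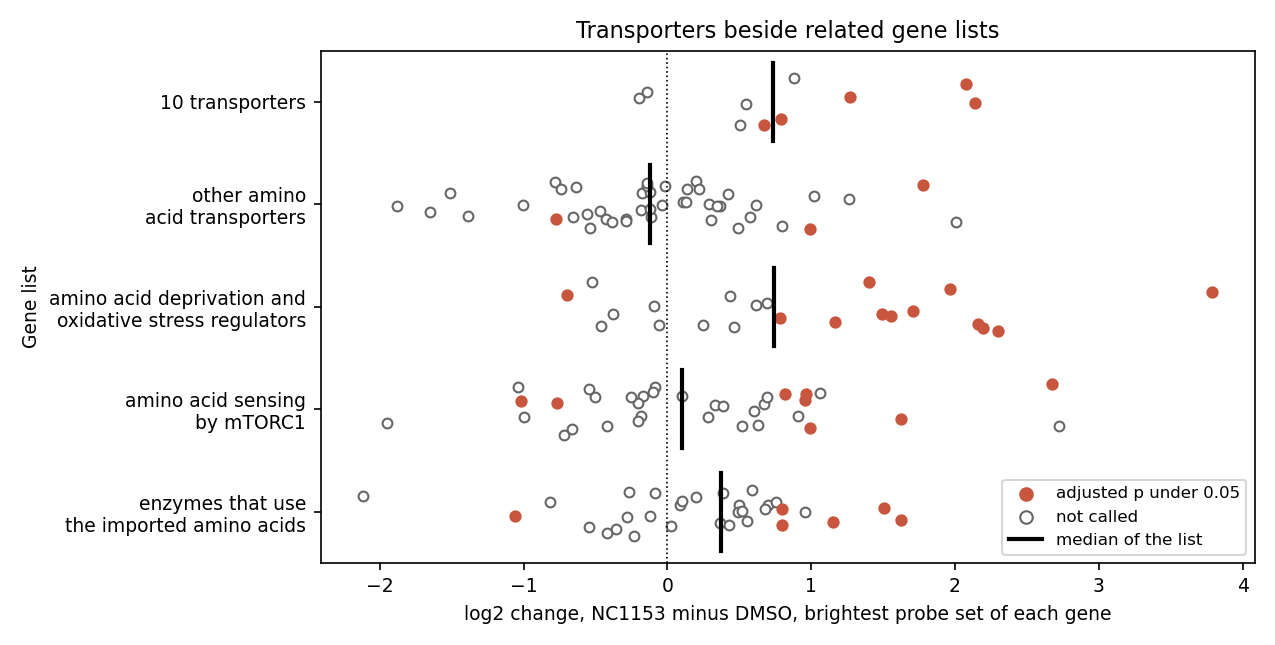
log2 change (NC1153 minus DMSO) of the brightest probe set of each gene, for the 10 transporters and 4 related gene lists. Each point is a gene, filled where the limma adjusted p was under 0.05, and the black bar is the median of the list. The medians are 0.73 for the transporters, -0.12 for other carriers, 0.74 for the regulators, 0.10 for mTORC1 sensing and 0.38 for the enzymes.

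Genes that sense amino acids for mTORC1 changed in both directions. Of 35 measured genes, 6 rose, 2 fell and 27 did not pass, with a median log2 change of 0.10. Of all genes, 3.09% were higher and 2.84% lower. CASTOR2, which encodes a paralogue of the arginine sensor CASTOR1 and has near-identical copies in the genome, had a log2 change of 2.67 and SESN2, the leucine sensor sestrin 2, of 1.63. SLC38A9 (1.00) and TSC1 (0.96), which restrains mTORC1, also rose, and FNIP2, a folliculin partner, fell by 1.02 on the log2 scale. Of 3 other FNIP2 probe sets, 1 had the opposite sign, and none passed. After median centring 0 of this list were called in either direction, and after spike-in centring 2 were higher and 4 lower. Over the whole array, spike-in centring called 180 of 54613 probe sets higher and 1758 lower.

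Among enzymes that use the imported amino acids, 5 of 32 measured genes rose, 1 fell and 26 did not pass. Of all genes, 3.09% were higher and 2.84% lower. The median log2 change of the list was 0.38. CTH, which makes cysteine from cystathionine, read 7829 and 9523 with NC1153 and 2706 and 2907 with DMSO, a log2 change of 1.62. GCLM and GCLC, the subunits of the enzyme that starts glutathione synthesis, changed by 1.15 (limma adjusted p = 0.0028) and 0.80 (adjusted p = 0.024). On its other probe sets GCLC had values of 0.61 (limma adjusted p = 0.067) and 0.67 (adjusted p = 0.73) and did not pass. CHAC1, which degrades glutathione, changed by 1.51. Other glutathione genes of the list did not pass. Values were 0.70 for the reductase GSR (limma adjusted p = 0.063), 0.39 for the synthetase GSS and -0.12 for the peroxidase GPX4. GGT1, which cleaves glutathione outside the cell, had a value of -0.36 on a probe set below the median signal. It read 107 and 21.2 with NC1153 and 24.2 and 154 with DMSO, with overlapping groups. ODC1, which turns the arginine product ornithine into putrescine, read 9401 and 10632 against 21237 and 20415, a log2 change of -1.06. ASNS, asparagine synthetase, read 20925 and 17516 against 10649 and 11369, a log2 change of 0.80. After spike-in centring 1 of this list was called higher and 2 lower, and after median centring 0 in either direction. Spike-in centring called 180 of all 54613 probe sets higher and 1758 lower.

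The genes whose 4 log2 values, set against the DMSO mean, lay nearest to those of the brightest SLC7A11 probe set among 22542 brighter annotated probe sets were ATF3 (distance 0.090), KLHL24 (0.18) and CCPG1 (0.26). ATF3 read 5067 and 5789 with NC1153 and 1101 and 1328 with DMSO. KLHL24, a kelch-like protein gene, read 785 and 866 against 155 and 207, and CCPG1, which encodes a receptor for autophagy of the endoplasmic reticulum, read 817 and 1210 against 207 and 282. With 4 arrays in 2 groups, such nearness mostly reflects the size of the change.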

How the data were processed

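Affymetrix HG-U133 Plus 2.0 arrays measured the RNA of 4 Kit225 samples, 2 with NC1153 and 2 with DMSO, which were grouped by the sample titles. The deposited values are intensities on a linear scale, scaled by the authors to a common mean on each array, per the file headers of the second table. The software is not given in the sources used here. The second deposited table holds log2 values by RMA with the authors' raw p-values, per the file headers, for probe sets selected at a q-value limit, and served only as a comparison.

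With limma 3.58.1 (R 4.3.3), lmFit and eBayes with a variance trend were run on the log2 of the signal over 54613 non-control probe sets, two-sided, once the procedure had been tested on simulated data. The simulated noise followed the variance model fitted to these arrays, so that run cannot check the variance trend. There were 2 residual and 7.27 prior degrees of freedom, and precision is limited by how few arrays there are. A 95% interval is that of this fit. Each gene is represented by its brightest probe set, whose name comes from the platform annotation, brought up to date through gene identifiers (41037 of 41091 probe sets with 1 gene matched). An exact two-sided permutation test of 2 against 2 arrays cannot go below p = 0.333 and was not used.

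All members were named in full. From each further list, the called genes with the largest change were named, up to 5, besides ATF4, DDIT3, NFE2L2 and MYC. ASNS was added after its value was seen, and GCN1, GSR, GSS, GPX4 and GGT1 were also named outside this rule. The members and lists were chosen with earlier results of these data known. Arrays with the same replicate number also carry a common number in their names in the second deposited table, and nothing says what it marks, so the replicate block is an alternative. Other alternatives covered the variance model, normalization, pseudocount, filter and each array left out.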

Additional observations from a re-analysis of the deposited data

How the results depend on the processing

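The number of transporter probe sets called higher, 13, was 0 without a variance trend, 0 with an ordinary test per probe set, 2 with median centring, 6 with spike-in centring and 7 to 13 with single arrays left out. Over the whole array 1062 were higher, against 0, 0, 23 and 180 in the first 4 of these settings, and spike-in centring called 1758 lower. None was called lower in any fit, at the limma threshold. Without a variance trend and with the ordinary test, adjusted p values were 0.46 and 0.33 for SLC7A11 (log2 change 2.14), 0.46 and 0.32 for SLC3A2 (2.08), 0.55 and 0.35 for SLC7A1 (0.68), 0.52 and 0.39 for SLC38A2 (0.79) and 0.46 and 0.30 for SLC1A4 (1.27). Median centring left SLC7A11 at 2.05, SLC7A1 at 0.59, SLC38A2 at 0.70 and SLC1A4 at 1.18, all past the threshold no longer, and spike-in centring left SLC7A1 at 0.29, SLC38A2 at 0.41, SLC1A5 at 0.16 and SLC7A5 at 0.13. With single arrays left out, changes ranged from 0.60 to 0.75 for SLC7A1, from 0.67 to 0.91 for SLC38A2, from 0.46 to 0.63 for SLC1A5 and from 0.31 to 0.70 for SLC7A5. A group of 1 array is then assumed to vary like the other group. SLC1A5 passed at 0.57 with quantile normalization and at 0.54 with brighter probe sets. The mean over all probe sets of a gene was 0.54 for SLC7A1, 1.04 for SLC1A4 and, with the sign reversed, 0.20 for SLC38A1, where the dim 236857_at carries the mean. The cause of the other changes was not tested. Deviations of equally numbered arrays correlated with r = 0.055 over all probe sets and 0.12 over those brighter than the median. With the replicate block SLC7A5 (0.51) and SLC1A5 (0.54) passed too, 15 probe sets in all, and 0 of the 13 calls were lost. For dim probe sets, such as that of SLC43A1, the spread between arrays limits what can be seen. The counts of the further lists under each setting were an alternative chosen after seeing the data; without a variance trend 0 genes of these lists were called.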
